A study of Mus musculus with 18 samples.

Results

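Smooth muscle actin and its contractile partners were followed in 2 immortalized mouse embryonic fibroblast lines. The 10 genes were taken by symbol from the deposited tables. They are the actins Acta2 and Actg2, the calponins Cnn1 and Cnn2, transgelin (Tagln), caldesmon (Cald1), the tropomyosins Tpm1 and Tpm2, the regulatory myosin light chain Myl9 and the non-muscle myosin heavy chain Myh9. Of these, 8 had a row in at least 1 table, out of 10110 symbols in all, and Cnn2 and Tpm1 had none. The mutant line carries eIF2α S51A (genotype eIF2aS51A), in which the serine that stress kinases phosphorylate is replaced by alanine, and the other line is Wild-Type (WT). Both lines were left untreated or were given 500 µM hydrogen peroxide for 15 or 120 min, which makes 6 groups with 3 samples each in the labels. The design text speaks of duplicates, and each genotype is represented by 1 line, so genotype and line cannot be told apart.

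Each table compares the lines at 1 time and gives 1 FPKM value (read fragments scaled to transcript length and library size) per line, together with a log2 ratio and a q-value. Neither the spread between samples nor the read depth can be read from them, so values carry no standard deviation. Whether the samples came from separate cultures is not given in the labels, so a q-value may measure technical spread alone. All rows are genes the authors called different, with q-values up to 0.05. A gene without a row was not called or was not tested, which says nothing about equality. "Higher" and "lower" in S51A always refer to that call. Because RNA is pooled over the culture, more cells with the transcript and more transcript per cell cannot be told apart.

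Acta2 and Actg2 encode the actins that build the contractile filaments of smooth muscle, and Acta2 is also the usual marker of myofibroblasts, the contractile fibroblasts of wounds and fibrosis. Calponin 1, transgelin and caldesmon bind those filaments, tropomyosins run along them, and Myl9 is the light chain whose phosphorylation lets myosin pull on actin. Many of these genes are driven by serum response factor (SRF), which binds the CArG box and is helped by the actin-sensing coactivators of the myocardin family, and transforming growth factor β is a classic inducer in fibroblasts.

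Promoter windows were searched because several of these genes are textbook SRF targets. The RefSeq table for GRCm38.p6 held 9 windows for 8 of the 10 genes. Tagln and Actg2 had no window and were not searched. The 250 bases before each transcript start were scanned on both strands for the CArG box, for that box with 1 letter changed and for the motif CATTCC, which TEAD factors bind. The CArG box was found before Myl9 and Cnn2, and it occurs in 1.47% of all 32851 windows of that length. The form with 1 letter changed was found before Acta2, Myl9, Tpm1 and the upstream start of Cald1, and it occurs in 17.5% of all windows. CATTCC, present in 12.6% of all windows, was found before Acta2, Tpm1 and the upstream start of Cald1, and it overlapped none of the CArG forms in them. Neither CArG form was present in the windows of Cnn1, Tpm2 and Myh9 or at the Cald1 start used in the tables. The following stretches of 30 bases show the sites side by side, 5′ to 3′ on the gene's strand, with the CArG box or its changed form in capitals. A match describes letters and is not a measured binding site.
Acta2, minus strand, chr19:34255438-34255467: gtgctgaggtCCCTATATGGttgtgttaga
Acta2, minus strand, chr19:34255388-34255417: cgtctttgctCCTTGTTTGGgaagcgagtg
Myl9, plus strand, chr2:156775293-156775322: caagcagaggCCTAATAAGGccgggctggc
Myl9, plus strand, chr2:156775355-156775384: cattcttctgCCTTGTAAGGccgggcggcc
Cald1 upstream start, plus strand, chr6:34598291-34598320: acggtttcaaGCTTTTTAGGacttggtttt
Cnn2, plus strand, chr10:79988534-79988563: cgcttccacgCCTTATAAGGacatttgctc
Tpm1, minus strand, chr9:67049415-67049444: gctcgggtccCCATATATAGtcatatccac
Tpm1, minus strand, chr9:67049274-67049303: acaagcttttCCAAAAAAGTattggctgtc

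Myl9 was the gene with a row in the tables whose window held both the CArG box and its changed form, so 200 bases of it are shown (GRCm38.p6, chr2:156775214-156775413, plus strand), with both forms in capitals. The box lies at positions -161 to -152 from the transcript start, and the changed form at -99 to -90.
Myl9: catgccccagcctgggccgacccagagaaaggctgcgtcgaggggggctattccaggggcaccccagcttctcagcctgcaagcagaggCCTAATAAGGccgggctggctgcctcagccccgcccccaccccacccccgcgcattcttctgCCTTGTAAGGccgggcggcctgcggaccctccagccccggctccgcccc

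The comparison of the lines at each time asked how they differed before and during oxidative stress. Every listed member was higher in S51A at the times it was listed. At 0 min 7 of 10 members had a row and 7 were higher, where 49.6% of all rows were higher. After 15 min there were 8 rows and 8 higher members against 49.9% of all rows, and after 120 min 7 rows and 7 higher members against 50.9%. In the authors' deposited data 6 members had a row at all times, and 6 of them were higher each time, where 44.9% of the 3826 genes listed at all times were. With at least a 2-fold difference, 4, 3 and 5 members were higher at 0, 15 and 120 min, and the shares of all rows past that fold were 22.0%, 20.1% and 26.5%. The median log2 ratio of the listed members in the authors' deposited tables was 1.46, 0.95 and 1.75, beside -0.27, -0.20 and 0.42 for all genes listed. Only called genes are listed, so ratios near 0 are largely missing. The median of all genes listed can therefore cross that gap when the share of higher rows passes 50%. Having a row is common in these data, since 74.7%, 82.0% and 60.4% of the symbols seen at any time had one at 0, 15 and 120 min. The members were chosen with results of these data known, so these counts describe them and do not test the family.

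**Figure D1:**
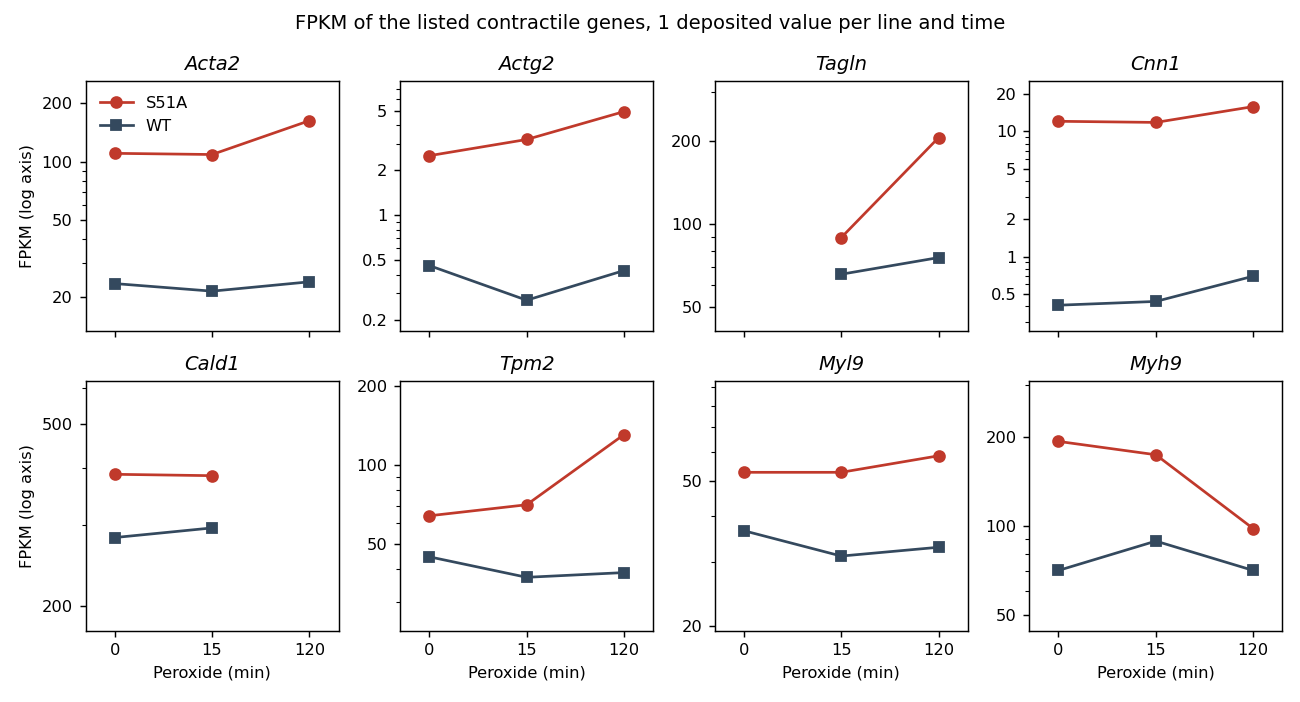
Level of each listed gene in FPKM (log axis) against time in peroxide (0, 15 and 120 min, drawn evenly spaced), with red circles for S51A and dark squares for WT and no error bars because each point is the authors' only value. The S51A points lie above the WT points in every panel, and Myh9 runs downward in S51A, with 97.7 FPKM in S51A at 120 min against 193 FPKM at 0 min.

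Acta2 (α smooth muscle actin; chromosome 19, 34240336 to 34255373, mm10 coordinates of the deposited tables throughout) stood at 111, 109 and 163 FPKM in S51A at 0, 15 and 120 min, against 23.6, 21.6 and 24.1 FPKM in WT. All S51A values lay above all WT values, and the lowest in S51A was 4.53 times the highest in WT. Here and below, the times may have been normalized separately, and the share of all genes separated in this way was not counted. Such a separation requires being higher in S51A at every time, which held for 44.9% of the genes listed at all times. The lines differed 4.69-fold, 5.06-fold and 6.77-fold. In the authors' deposited tables the log2 ratios were 2.23, 2.34 and 2.76, each with the lowest q-value of its table (0.000118, 0.000102 and 0.000198). Those lowest q-values were shared by 4905, 5803 and 3041 rows.

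Actg2 (γ smooth muscle actin, the enteric form; chromosome 6, 83512909 to 83536251) was low in both lines. It had 2.50, 3.20 and 4.92 FPKM in S51A at 0, 15 and 120 min, against 0.460, 0.270 and 0.426 FPKM in WT. S51A again lay above WT at every time, 5.43-fold, 11.9-fold and 11.6-fold. The authors' deposited tables gave log2 ratios of 2.44, 3.57 and 3.53 with q-values of 0.000229, 0.000102 and 0.00453. With 1 FPKM added to both lines, the log2 ratios were 1.26, 1.73 and 2.05. Smooth muscle actins have coding sequences close to those of the other actins, so reads may have been split between them. The sources used here do not say how such reads were assigned.

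The cytoplasmic actins of the same family went the other way. Actb (β-actin) was lower in S51A, at 1965 FPKM in S51A and 3104 FPKM in WT at 0 min, and at 1965 FPKM in S51A and 2916 FPKM in WT at 15 min. Actg1 (cytoplasmic γ-actin) was lower at all times, with 215, 223 and 197 FPKM in S51A against 380, 375 and 347 FPKM in WT. Acta1 and Actc1, the striated muscle actins, had no row. The 2 smooth muscle actins made up 4.93% of the summed FPKM of Acta2, Actg2, Actb and Actg1 in untreated S51A cells and 0.685% in WT cells, and 4.88% and 0.659% in S51A and WT at 15 min. Actb had no row at 120 min, so this share cannot be given there.

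Cnn1 (calponin 1, a filament-binding protein typical of smooth muscle) had the largest log2 ratio of the listed members at every time. It stood at 12.0, 11.8 and 15.8 FPKM in S51A at 0, 15 and 120 min, against 0.409, 0.438 and 0.697 FPKM in WT. These levels differed 29.4-fold, 26.9-fold and 22.6-fold, so the gene was near absence in WT and modest in S51A. In the authors' deposited tables the log2 ratios were 4.88, 4.75 and 4.50, with q-values of 0.0194, 0.0460 and 0.0312. With 1 FPKM added to both lines, they were 3.21, 3.15 and 3.31. Those q-values are near the threshold: 91.7%, 99.5% and 92.2% of all rows had one as low or lower. The deposited locus of Cnn1 (chromosome 9, 22055460 to 22389206) spans 333747 bases, while GENCODE places the gene within 10415 bases (22099216 to 22109630) and puts 11 other protein-coding genes in the locus. Anln, Ecsit and Elof1, which share that locus in the tables, were each lower in S51A where listed, as with Anln at 62.7 FPKM in S51A and 83.3 FPKM in WT at 0 min. Whether the merged locus affects the Cnn1 value or its q-value was not tested.

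Cnn3, the calponin of non-muscle cells, was also higher in S51A, unlike the cytoplasmic actins. It had 280, 290 and 298 FPKM in S51A against 152, 150 and 142 FPKM in WT, differing 1.84-fold, 1.93-fold and 2.10-fold. Cnn1 therefore made up 4.12%, 3.91% and 5.03% of the summed Cnn1 and Cnn3 FPKM in S51A at 0, 15 and 120 min, against 0.268%, 0.291% and 0.489% in WT.

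Tagln (transgelin or SM22α, an actin-bundling protein and early smooth muscle marker; deposited locus chromosome 9, 45863691 to 45936058) had no row at 0 min. At 15 min it stood at 89.3 FPKM in S51A and 65.8 FPKM in WT, and at 120 min at 205 FPKM in S51A and 75.6 FPKM in WT. The lines thus differed 1.36-fold at 15 min and 2.71-fold at 120 min. The authors' deposited tables gave log2 ratios of 0.44 (q-value 0.000926) and 1.44 (q-value 0.000198). The deposited locus spans 72368 bases, while GENCODE places Tagln within 6440 bases and puts 3 other protein-coding genes in the locus. The part of the merged locus in the Tagln value was not tested. GENCODE has Pcsk7 and an antisense gene, Gm48529, on the opposite strand across Tagln. The library kit keeps strand, but the sources used here do not say whether the counting used it. Tagln2, the non-muscle transgelin, was lower at all times, at 229, 239 and 265 FPKM in S51A against 393, 388 and 391 FPKM in WT. Tagln therefore made up 27.2% of the pair in S51A and 14.5% in WT at 15 min, and 43.6% in S51A and 16.2% in WT at 120 min.

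Cald1 (caldesmon, which holds actomyosin in check; chromosome 6, 34709444 to 34775469) was the most abundant member, with the smallest difference at 0 and 15 min. It had 388 and 385 FPKM in S51A at 0 and 15 min, against 282 and 296 FPKM in WT, or 1.38-fold and 1.30-fold. The authors' deposited tables gave log2 ratios of 0.46 and 0.38 with q-values of 0.000229 and 0.000102. The gene had no row at 120 min.

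Tpm2 (β-tropomyosin; chromosome 4, 43513726 to 43523554) had 64.0, 70.5 and 131 FPKM in S51A at 0, 15 and 120 min, against 44.6, 37.3 and 38.9 FPKM in WT. All S51A values were above the WT values (the share of all genes so separated was not counted), and the difference was 1.43-fold, 1.89-fold and 3.36-fold. In the authors' deposited tables the log2 ratios were 0.52, 0.92 and 1.75, each at the lowest q-value of its table. Tpm4, a tropomyosin of non-muscle cells, was lower in S51A, with 537 and 572 FPKM in S51A at 0 and 15 min against 755 and 729 FPKM in WT. Tpm3, another widely expressed tropomyosin, was lower at 0 min, at 124 FPKM in S51A and 147 FPKM in WT. The share of Tpm2 in the summed Tpm2 and Tpm4 FPKM was 10.6% and 11.0% in S51A at 0 and 15 min, against 5.58% and 4.86% in WT.

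**Figure D2:**
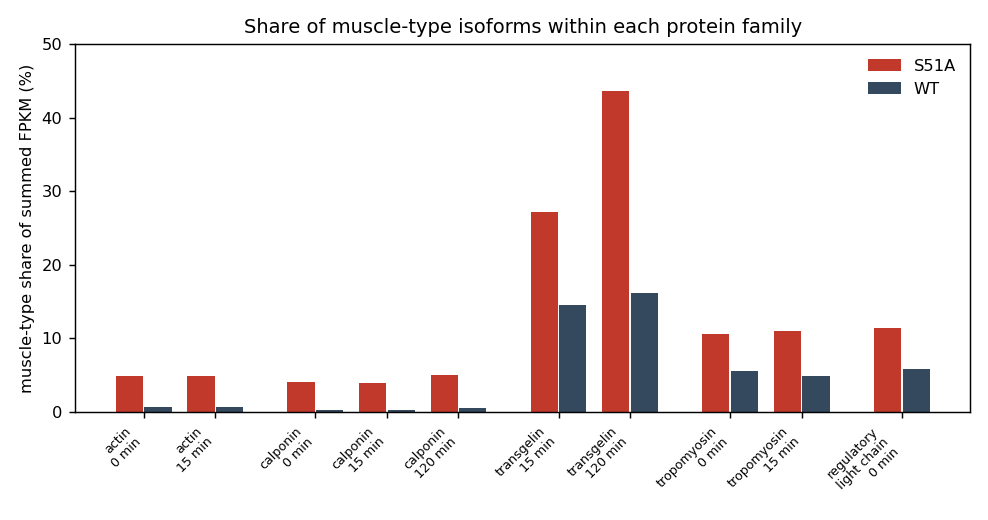
Share (%) of the smooth-muscle-type genes in the summed FPKM of the genes compared within each family, red for S51A and dark for WT. Bars are drawn at each time when all of the compared genes had a row, and Cnn2, Tpm1 and Tpm3 are in no sum. The actin pair is Acta2 with Actg2 over Actb with Actg1, and the other families are Cnn1 over Cnn3, Tagln over Tagln2, Tpm2 over Tpm4 and Myl9 over Myl12a with Myl12b, and the S51A bar is higher each time, as with 43.6% in S51A and 16.2% in WT for transgelin at 120 min.

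Myl9 (chromosome 2, 156775464 to 156781657) had a steady level, at 52.7, 52.7 and 58.5 FPKM in S51A at 0, 15 and 120 min against 36.5, 31.1 and 32.9 FPKM in WT. The values of the 2 lines did not overlap (the share of all genes so separated was not counted), and the difference was 1.44-fold, 1.69-fold and 1.78-fold. The authors' deposited tables gave log2 ratios of 0.54, 0.75 and 0.83, each at the lowest q-value of its table. Relative to the median of all genes listed at each time, which rests on called genes only, these were 0.81, 0.95 and 0.41. The near-identical non-muscle light chains Myl12a and Myl12b, which may share reads with Myl9, were lower in S51A at 0 min. Myl12a was at 347 FPKM in S51A and 495 FPKM in WT, and Myl12b at 63.6 FPKM in S51A and 89.3 FPKM in WT. Myl9 made up 11.4% of these 3 light chains in S51A and 5.88% in WT at that time. At 120 min Myl12a was instead higher, with 680 FPKM in S51A and 488 FPKM in WT.

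Myh9 (the heavy chain of non-muscle myosin IIA, the motor of stress fibres; chromosome 15, 77760585 to 77842175) narrowed its difference with time. It stood at 193, 174 and 97.7 FPKM in S51A at 0, 15 and 120 min, against 70.5, 88.6 and 70.5 FPKM in WT. S51A was above WT each time, but the lowest S51A value, at 120 min, was only 1.10 times the highest WT value, at 15 min. The lines differed 2.73-fold, 1.96-fold and 1.39-fold, and the authors' deposited tables gave log2 ratios of 1.46, 0.98 and 0.47 with q-values of 0.000118, 0.000102 and 0.0227. Relative to the median of all genes listed at 120 min, which rests on called genes only, the last ratio was 0.05. Myh10, the heavy chain of non-muscle myosin IIB, was lower in S51A, at 47.8 FPKM in S51A and 67.6 FPKM in WT at 15 min and 26.0 FPKM in S51A and 52.3 FPKM in WT at 120 min.

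**Figure D3:**
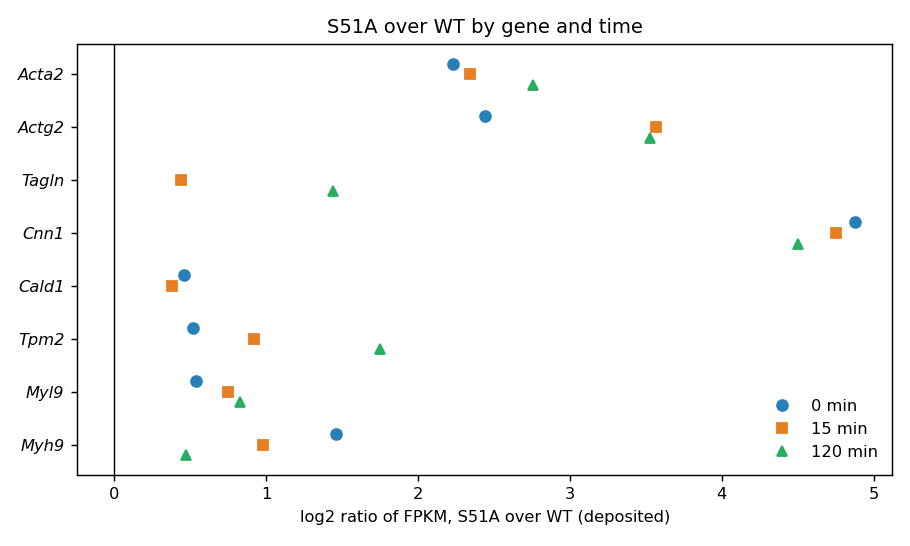
Deposited log2 ratio of S51A over WT (x axis) for each gene (y axis), with blue circles for 0 min, orange squares for 15 min and green triangles for 120 min. All points lie right of 0, from 0.38 for Cald1 at 15 min to 4.88 for Cnn1 at 0 min, and the order of the times runs opposite ways in Tpm2 and Myh9.

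Changes within a line were read across tables that may have been normalized separately, and no test of them could be made. They are given as differences of log2(FPKM + 1) from 0 min, less the median difference of all genes with rows at both times. After 15 min the members' median change was -0.03 in S51A and -0.13 in WT (7 genes). All 7 changes in S51A lay between -0.17 and 0.25, and those in WT between -0.26 and 0.32. With 0.1 FPKM added, Actg2 moved beyond these ranges, to 0.33 in S51A and -0.61 in WT. After 120 min the median was 0.64 in S51A and 0.08 in WT (6 genes). In S51A 5 of the 6 changes were above 0, with or without centring, whereas the WT median was -0.017 without centring.

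In S51A the change after 120 min was 1.20 for Tpm2, 0.94 for Actg2, 0.73 for Acta2, 0.54 for Cnn1, 0.33 for Myl9 and -0.79 for Myh9. In WT the same genes changed by -0.10, 0.06, 0.13, 0.37, -0.05 and 0.10, and the sign for Actg2 turned without centring (-0.034). For Cnn1 the order of the lines turned with 0.1 FPKM added in place of 1, with 0.60 in S51A and 0.76 in WT. Tagln, compared between 120 and 15 min, changed by 1.39 in S51A and 0.32 in WT after centring. In the authors' deposited tables the log2 ratio between the lines at 120 min differed from that at 0 min by 1.23 for Tpm2, 1.09 for Actg2, 0.53 for Acta2 and 0.29 for Myl9, and by -0.38 for Cnn1 and -0.99 for Myh9. The median ratio of all listed genes differed by 0.69 between those tables, and relative to it the differences were 0.54 for Tpm2, 0.40 for Actg2, -0.16 for Acta2, -0.40 for Myl9, -1.07 for Cnn1 and -1.68 for Myh9. The sign for Acta2 and Myl9 therefore turned with this centring. The shift of 0.69 went with a share of higher rows of 49.6% at 0 min and 50.9% at 120 min. Since ratios near 0 are largely missing among called genes, it need not measure a shift of typical genes, and the centred differences carry the same limit.

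Transcript length moved with these changes across all genes. In S51A the median change after 120 min was 0.70 for the length quartile with the shortest transcripts (371 to 2070 nt), 0.09 and -0.14 for the middle quartiles, and -0.50 for the longest (4758 to 40378 nt), while in WT the 4 medians were between -0.02 and 0.04. After 15 min the medians stepped the same way in S51A, at 0.08, 0.02, -0.02 and -0.09 by increasing length, and the opposite way in WT, at -0.16, -0.03, 0.04 and 0.14. Acta2 (longest coding transcript 2035 nt), Actg2 (1333 nt) and Myl9 (1128 nt) belong to the shortest quartile, Tpm2 (2175 nt) and Cnn1 (2381 nt) to the next, and Myh9 (7433 nt) to the longest. The change of Acta2 in S51A after 120 min was thus close to the median of its quartile, that of Myl9 was below it and that of Actg2 (0.94) above it. The fall of Myh9 (-0.79) went past the -0.50 of its quartile, and those of Tpm2 and Cnn1 were above the 0.09 of theirs. Tagln (1595 nt) falls within the length range of the shortest quartile, but no quartile medians were taken from 15 to 120 min. The part of transcript length in these results, the rise of Tagln among them, was not tested.

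**Figure D4:**
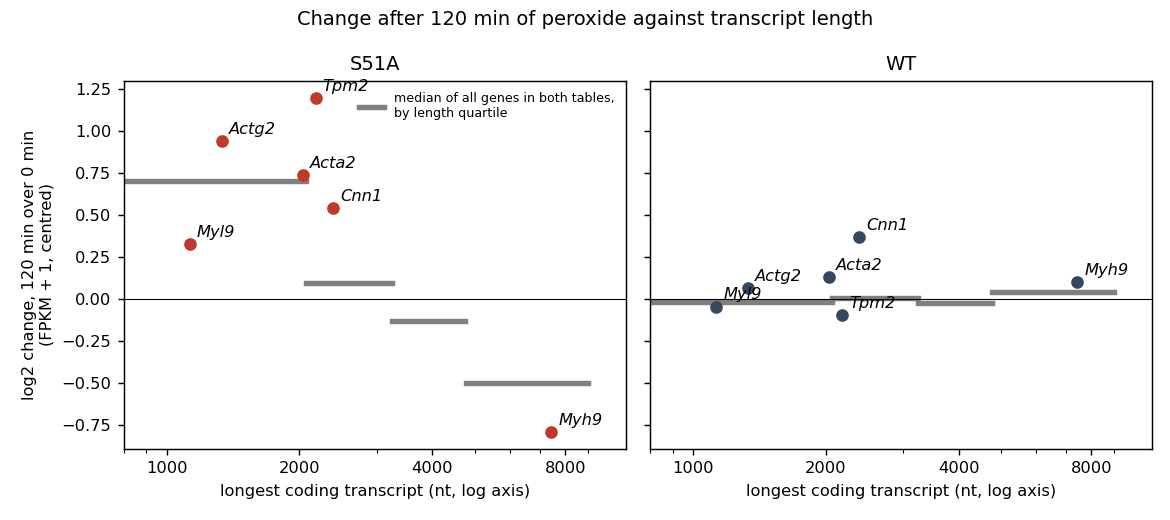
Change of log2(FPKM + 1) from 0 to 120 min, centred (y axis), against the longest coding transcript in nt (log x axis), for S51A (left) and WT (right). Points are the 6 members listed at both times and grey bars the median of all genes by length quartile, the outer bars being cut at the plotted range, and the bars step down from 0.70 to -0.50 in S51A and stay near 0 in WT.

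Related genes of the contractile apparatus and the SRF network were read beside the members. Of 71 related genes in 7 lists, 59 had a row in at least 1 table. At 0 min 19 were higher and 23 lower, at 15 min 21 and 28, and at 120 min 18 and 20, with median log2 ratios of -0.31, -0.29 and -0.505. The higher share was 45.2%, 42.9% and 47.4% of those listed, near the 49.6%, 49.9% and 50.9% of all rows.

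Among SRF coactivators and actin regulators, 6 listed genes were higher and 4 lower at 0 min, 6 and 3 at 15 min, and 5 and 0 at 120 min, of 13, in the authors' deposited tables. Fhl1, a LIM-domain protein of muscle, was at 30.1, 30.1 and 36.8 FPKM in S51A against 1.04, 0.959 and 1.18 FPKM in WT. Csrp2, a LIM-domain protein of smooth muscle, was at 105, 116 and 163 FPKM in S51A against 38.1, 35.8 and 32.7 FPKM in WT. Mkl1, the actin-sensing SRF coactivator, was higher at 0 min, at 21.3 FPKM in S51A and 13.8 FPKM in WT, and at 15 min, at 19.8 FPKM in S51A and 15.7 FPKM in WT. Srf and Myocd had no row. The actin-monomer binders Tmsb4x (thymosin β4) and Pfn1 (profilin 1) were lower at 0 min, with Tmsb4x at 329 FPKM in S51A and 1201 FPKM in WT and Pfn1 at 449 FPKM in S51A and 1010 FPKM in WT. Gsn (gelsolin, which severs and caps filaments) was higher, at 104 FPKM in S51A and 82.1 FPKM in WT at 0 min and 110 FPKM in S51A and 76.6 FPKM in WT at 15 min. Cfl2, the muscle cofilin, was also higher, at 61.0 FPKM in S51A and 53.1 FPKM in WT at 15 min and 64.9 FPKM in S51A and 41.9 FPKM in WT at 120 min. Cfl1 (cofilin 1, which severs filaments) was lower at 0 min, with 955 FPKM in S51A and 1333 FPKM in WT, and higher at 120 min, with 1911 FPKM in S51A and 1278 FPKM in WT.

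Most listed cross-linker and focal adhesion genes were lower at 15 and 120 min. Of 15, 4 were higher and 5 lower at 0 min, 2 and 7 at 15 min, and 1 and 9 at 120 min. Pdlim5, an α-actinin-binding protein, was higher at all times, at 24.1, 22.6 and 16.7 FPKM in S51A against 7.41, 9.13 and 9.19 FPKM in WT. Flnc (filamin C) was lower, at 22.9, 20.3 and 11.7 FPKM in S51A against 28.6, 38.6 and 28.8 FPKM in WT. Lpp, an adhesion scaffold, was higher at 0 min (13.7 FPKM in S51A, 11.0 FPKM in WT) and lower at 120 min (5.90 FPKM in S51A, 12.8 FPKM in WT). Talin 1 (Tln1), which links integrins to actin, also differed in direction, at 60.5 FPKM in S51A and 42.5 FPKM in WT at 0 min and 28.8 FPKM in S51A and 42.8 FPKM in WT at 120 min.

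Genes that control the light chain had rows in both directions, with 3 higher and 2 lower at 0 min, 6 and 4 at 15 min, and 4 and 3 at 120 min, of 12. The light chain kinase gene Mylk was higher at a low level, at 1.51, 1.36 and 1.15 FPKM in S51A against 0.490, 0.398 and 0.611 FPKM in WT. Ppp1r14a, an inhibitor of the opposing phosphatase, was at 1.89 FPKM in S51A and 0.480 FPKM in WT at 15 min, and the phosphatase subunit gene Ppp1r12b at 0.555 FPKM in S51A and 2.11 FPKM in WT at 120 min. Of the 10 other myosin genes, 0 were higher and 4 lower at 0 min, 2 and 4 at 15 min, and 3 and 3 at 120 min in the authors' deposited tables. The essential light chain gene Myl6 was at 1193 FPKM in S51A and 383 FPKM in WT at 120 min, when Myl4, a light chain of embryonic and atrial muscle, was at 4.26 FPKM in S51A and 1.87 FPKM in WT. Tagln3, a neuronal transgelin, was at 3.18 FPKM in S51A and listed at 0 in WT at 120 min.

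Transforming growth factor β genes showed their largest differences in the ligands. Of 12 genes, 5 were higher and 3 lower at 0 min, 4 and 6 at 15 min, and 3 and 3 at 120 min. Tgfb3 was at 32.4, 30.3 and 18.5 FPKM in S51A against 2.43, 2.53 and 1.92 FPKM in WT, and Tgfb2 at 5.28, 5.50 and 4.17 FPKM in S51A against 0.210, 0.319 and 0.259 FPKM in WT. Smad7, the inhibitory Smad, was lower at all times, at 6.45, 5.98 and 5.82 FPKM in S51A against 15.0, 16.2 and 12.0 FPKM in WT.

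The cells were labelled fibroblasts, and the markers of other cell types were read beside the members. Fibroblast markers had rows for 9, 8 and 7 of 10 genes, summing to 3817, 4094 and 2758 FPKM in S51A and 2543, 2721 and 917 FPKM in WT over the genes listed. Of these, 7 were higher and 2 lower at 0 min, 6 and 2 at 15 min, and 5 and 2 at 120 min. Vim (vimentin) was lower, at 1075 FPKM in S51A and 1872 FPKM in WT at 0 min and 1136 FPKM in S51A and 1652 FPKM in WT at 15 min, and its lack of a row at 120 min leaves it out of the sums there. Thy1 was lower at all times, at 10.6, 10.9 and 14.1 FPKM in S51A against 23.6, 21.0 and 24.6 FPKM in WT. The collagen genes Col1a1, Col1a2 and Col3a1 were higher at all times. At 0 min Col1a1 was at 1160 FPKM in S51A and 241 FPKM in WT, and Col1a2 at 1097.5 FPKM in S51A and 155 FPKM in WT. Fbn1 was higher at 0 min (12.4 FPKM in S51A, 7.06 FPKM in WT) and lower at 120 min (4.96 FPKM in S51A, 6.87 FPKM in WT). Of 10 markers of differentiated smooth muscle, 2, 2 and 1 had a row, summing to 20.8, 20.8 and 13.2 FPKM in S51A and 26.2, 29.0 and 21.4 FPKM in WT. Smtn (smoothelin) made up most of that sum and was lower in S51A, at 20.1, 20.1 and 13.2 FPKM in S51A against 26.0, 28.8 and 21.4 FPKM in WT. Synm (0.660 FPKM in S51A, 0.158 FPKM in WT at 0 min) and Des (0.688 FPKM in S51A, 0.149 FPKM in WT at 15 min) were higher at levels under 1 FPKM, and Myh11, the smooth muscle myosin, had no row. No endothelial or epithelial marker, 0 of 6 each, had a row at any time in the authors' deposited tables. A marker expressed alike in both lines would also have no row, and the marker sums cover different genes at each time. Row counts and sums therefore cannot show which cell types were present. Leukocyte markers had 1 row of 6 at 0 min (Cd68, 1.11 FPKM in S51A and 1.97 FPKM in WT) and 1 at 120 min (Csf1r, 0.165 FPKM in S51A and 0.758 FPKM in WT). Of 8 striated muscle markers, Tnnt2 was lower in S51A, at 1.92 FPKM in S51A and 9.51 FPKM in WT at 0 min, and Tnni3, at 0.824 FPKM in S51A at 15 min, was listed at 0 in WT. The part of cell makeup in the members' differences was not tested.

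The genes whose pattern lay closest to Acta2 were found by the root-mean-square distance between centred log2(FPKM + 1) profiles over the 6 group values, among 3282 genes. These had a row at every time used and at least 5 FPKM in some group. The 5 nearest were Ddt, Gstm5, Fbxo2, Ifi27 and Bdh2, at distances of 0.103 to 0.136, where the median gene was at 1.41. Ddt, the nearest, had 139, 154 and 231 FPKM in S51A against 37.8, 33.1 and 34.3 FPKM in WT. Of the members compared, Cnn1 ranked 128th, Tpm2 466th, Myl9 909th and Myh9 970th by this distance. Actg2 fell below that level, and Tagln and Cald1 did not have a row at every time. For Tagln, its 4 group values were compared with 4262 genes chosen likewise. The 5 nearest were Fis1, Snrnp27, Ap2s1, Polr2g and S100a10, at distances of 0.0251 to 0.0494. Of the members compared with Tagln, Tpm2 ranked 151st, Myl9 527th, Myh9 1651st, Acta2 1815th and Cnn1 3628th. Cnn1 was at a distance of 1.18, beyond the 0.883 of the median gene. Many genes fall close to such short profiles, so the ranking is a description of these group values only.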

How the data were processed

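Polyadenylated RNA of 18 samples in 6 groups was made into strand-keeping libraries and read from 1 end, per the labels' protocols. STAR, Cufflinks, Cuffdiff and mm10 appear in the submitters' processing notes, without versions or roles. Per the file headers, the authors deposited log2 FPKM per line, the log2 ratio and a q-value (their p-value adjusted for multiple tests) in 3 tables, with replicates combined, and -10 standing for a group at 0. In the deposited tables the log2 ratio equals S51A minus WT within 0.01 and every row is marked significant. Starts were printed with 1 added. One further column in each of the 3 tables was not used. Doubled, repeated or date-like symbols were left out, leaving 7549, 8289 and 6105 genes.

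No test across samples was possible, so calls are the authors' and folds are ratios of their FPKM values. Within-line changes used a pseudocount of 1 FPKM, which understates changes of low genes. Transcript lengths and loci came from GENCODE M21 on the same build, and promoter windows from RefSeq. Python 3.11.15 with pandas 2.3.3 was used, and the median and motif search were tested on simulated or known inputs. Members, lists and alternatives were chosen with earlier results of these data known. Named related genes are up to 3 per list with the largest ratio and at least 1 FPKM in the higher line, plus those whose direction differed between times, and 1 of them is not reported here. The lists' symbols Mrtfa and Mrtfb were dropped as newer names of Mkl1 and Mkl2. Family shares, and Tpm3, Tpm4, Myl12b, Mkl1, Pfn1, Gsn, Cfl2, Vim and Thy1 as named genes, were chosen after seeing the values. The same holds for the fibroblast markers Col1a1, Col1a2, Col3a1 and Fbn1.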

Additional observations from a re-analysis of the deposited data

How the results depend on the processing

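The 22 member ratios were also taken with pseudocounts of 1 and 0.1 FPKM and after centring on all listed genes, and 35 of 66 values moved by 0.05 or more. A pseudocount added to both lines cannot turn the sign of a ratio. Centring could not turn it at 0 and 15 min either, where the median removed was negative. At 120 min, where a turn was possible, all 7 centred ratios stayed above 0, with Myh9 the lowest. Past 1.5 times were Actg2 with 1 FPKM added (1.26, 1.73 and 2.05 at 0, 15 and 120 min), Cnn1 with it at 0 and 15 min (3.21 and 3.15) and, after centring, Tpm2 at 0 min (0.79), Cald1 at 0 and 15 min (0.73 and 0.58), and Myl9 and Myh9 at 120 min (0.41 and 0.05). The 120 min change of Myl9 in S51A was 0.15 without centring. Counts of higher members at 0, 15 and 120 min moved beyond 1.5 times with a minimum fold of 2 at 0 min (4) and 15 min (3) and with a q-value of at most 0.001 at 120 min (4). The other alternatives left them within 1.5 times. Median log2 ratios moved by 0.05 or more after centring, to 1.73, 1.15 and 1.33, with 1 FPKM added at 0 min (1.26), and with at least 5 FPKM in the higher line at 0 min (1.00) and 120 min (1.595). Leaving out Cnn1, an alternative added after seeing the data, gave the same 1.00 and 1.595. The members' median change from 0 to 120 min in S51A was 0.46 without centring, 0.48 with at least 5 FPKM and 0.73 without Cnn1. In WT it was -0.017 without centring, opposite in sign to the centred value, as was Actg2 at -0.034, and the 15 min median in WT was -0.047 with at least 5 FPKM. The shift comes from the median removed by centring (-0.10 in WT and -0.18 in S51A at 120 min). No paired analysis was possible because the tables hold 1 value per group, and for the same reason no replicate could be left out. Depth and spread are unknown, so the precision of low values such as Actg2 in WT cannot be judged.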
